A study of Mus musculus with 7 samples.

Results

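The sites described here were Srsf3 binding sites listed only upon PDGF-AA stimulation, within transcripts that already carried an Srsf3 site elsewhere without it. They were chosen by their presence in the lists themselves: a distinct peak interval of the PDGF-AA list was taken when its gene also had a row in the untreated list and when no untreated peak overlapped it by 1 nt or more on the same strand. This gave 3589 sites in 1925 genes, out of 8384 distinct PDGF-AA peaks, and 2708 genes had rows in both lists. The sites made up 59.1% of the 6072 PDGF-AA peaks in those 2708 genes. Among the PDGF-AA peaks of all genes, 70.4% overlapped no untreated peak, 71.1% of the genes bound in both lists held at least 1 such site and 32% held at least 2. Because the rule fixed these shares, nothing was read from them.

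The cells were of the iMEPM line, made from palatal mesenchyme, the tissue that forms the palatal shelves, of a single Cdkn2a-/- mouse embryo, so that all groups lacked this cell cycle inhibitor. The stimulated group was treated with PDGF-AA at 10 ng/mL for 1 hr after serum starvation, and the unstimulated group (-PDGF-AA) was starved and left without ligand. The peaks came from enhanced UV-crosslinking and immunoprecipitation (eCLIP), in which RNA crosslinked to an RNA-binding protein is pulled down and sequenced, with an antibody against the endogenous Srsf3 protein. Of the 7 libraries, 1 was a PDGF-AA Srsf3 immunoprecipitation, 2 were untreated Srsf3 immunoprecipitations, and the rest were IgG or input controls without a list of their own. Each condition had 1 peak list without scores or read counts, so no replicate error and no test could be given, and a site missing from the untreated list was not shown to be unbound in untreated cells. The depth behind each peak is unknown. Intervals on shares are 95% Wilson intervals and cover the counting of sites only. The sites were set beside 2483 PDGF-AA sites that overlapped an untreated peak, called shared PDGF-AA sites, and beside 2855 untreated-only sites, which lay in genes bound in both lists and overlapped no PDGF-AA peak.

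Srsf3 is a small member of the SR protein family, which bind pre-mRNA through an RNA recognition motif and recruit or block the spliceosome through a domain rich in arginine and serine. SR proteins are best known for binding enhancers inside exons, many of them purine-rich, and they also take part in mRNA export and translation. PDGF-AA activates the receptor PDGFRα, whose PI3K and Akt signaling leads to phosphorylation of Srsf3 in palatal mesenchyme. Markers of mesenchyme and fibroblasts were bound widely, with PDGF-AA peaks in 11 of 12 listed genes and untreated peaks in 12 of 12. None of 10 epithelial markers had a peak in either list, 1 of 8 neural and glial markers had an untreated peak alone, and 1 of 8 endothelial and blood markers had a PDGF-AA peak alone.

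The sequences below are examples from genes that later paragraphs describe, picked by their sequence and not as typical sites. Each is the deposited interval read from GRCm39 on the transcribed strand, 5′ to 3′, and capitals mark copies of the hexamer GAAGAA or of its registers AGAAGA and AAGAAG within a GAA repeat, which are called GA hexamers. The 6 coding sites came from Tcf7l2 exon 10 (chr19:55907318-55907371, plus strand), Smarca4 exon 14 (chr9:21566944-21567009, plus strand), Syne1 exon 136 (chr10:4997561-4997615, minus strand), Ltbp2 exon 12 (chr12:84856035-84856092, minus strand), Igf1r exon 4 (chr7:67819657-67819707, plus strand) and Itga11 exon 9 (chr9:62651834-62651929, plus strand), which held no GA hexamer. The last site lay in an intron of Tshz3 (chr7:36401711-36401809, plus strand) and was almost wholly a GAA repeat. Each coding site shown was that with the most GA hexamers in its gene, and the Tshz3 site was among the intron sites with the most. Over all coding sites, 30.1% held a GA hexamer.
Tcf7l2: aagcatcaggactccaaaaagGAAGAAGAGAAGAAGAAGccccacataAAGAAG
Smarca4: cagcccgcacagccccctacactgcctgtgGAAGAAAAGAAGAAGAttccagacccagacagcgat
Syne1: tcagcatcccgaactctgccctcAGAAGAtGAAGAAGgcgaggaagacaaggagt
Ltbp2: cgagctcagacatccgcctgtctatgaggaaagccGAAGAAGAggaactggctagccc
Igf1r: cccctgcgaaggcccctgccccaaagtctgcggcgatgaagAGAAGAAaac
Itga11: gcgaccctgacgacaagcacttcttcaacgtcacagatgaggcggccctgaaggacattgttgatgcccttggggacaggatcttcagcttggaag
Tshz3: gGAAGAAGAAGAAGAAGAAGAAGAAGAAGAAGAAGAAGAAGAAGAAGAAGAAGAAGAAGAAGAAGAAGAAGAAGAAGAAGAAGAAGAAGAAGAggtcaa

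Of the 2855 untreated-only sites, 1124 lay in CDS and 1393 in introns. A tandem CA run, as defined below, was present in 684 of those in introns. Of these, 2 are shown, from Igf1r (chr7:67841731-67841810, plus strand) and Ltbp2 (chr12:84902713-84902802, minus strand), with stretches of CACACA or ACACAC in capitals. Each was picked as the untreated-only site with the longest CA repeat in its gene, and not as a typical site.
Igf1r, untreated: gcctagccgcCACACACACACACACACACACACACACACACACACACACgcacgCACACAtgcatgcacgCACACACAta
Ltbp2, untreated: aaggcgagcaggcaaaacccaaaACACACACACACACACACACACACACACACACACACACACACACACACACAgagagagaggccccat

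The sites lay mainly in coding sequence when the region covering most of a site was taken. A site was given the transcript region covering the largest number of its bases, with every GENCODE M39 transcript of its gene considered. Of 3535 sites that could be placed, 2893 were in CDS, or 81.8% (interval 80.5% to 83.1%), and 460 were in introns, or 13.0% (interval 11.9% to 14.2%). A further 89 lay in 5′ UTRs (2.52%), 84 in 3′ UTRs (2.38%) and 9 in non-coding exons. The shared PDGF-AA sites divided in nearly the same way, with 81.0% in CDS and 13.7% in introns, and their intervals overlapped those of the PDGF-AA-only sites for both regions. The untreated-only sites of the same set of genes were different, with 39.9% in CDS (interval 38.1% to 41.7%), 49.4% in introns and 6.99% in 5′ UTRs. When any overlap with a UTR was given precedence over CDS, CDS held 35.0% of the PDGF-AA-only sites and 3′ UTRs held 47.6%. Of 1598 sites that moved to 3′ UTRs in this way, 1445 lay in 3′ UTRs of nonsense-mediated decay transcripts alone. By the largest number of bases, the PDGF-AA-only and the shared sites were close to each other in region, and both stood apart from the untreated-only sites.

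**Figure D1:**
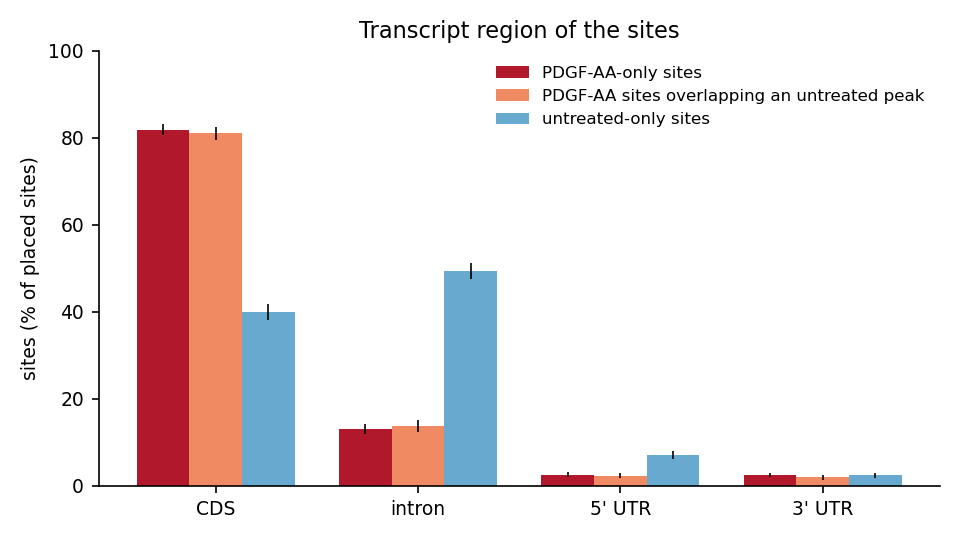
Share of placed sites in each transcript region for PDGF-AA-only sites (n = 3535), shared PDGF-AA sites (n = 2442) and untreated-only sites (n = 2819); bars are percentages with 95% Wilson intervals. CDS held 81.8% and 81.0% of the PDGF-AA groups, against 39.9% of untreated-only sites.

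Regions were also counted gene by gene, with all PDGF-AA peaks of a gene, shared ones included, set beside all of its untreated peaks. The most frequent arrangement was coding peaks alone in both lists. Among the 1925 genes with a site, 763 (39.6%) had all of their PDGF-AA peaks and all of their untreated peaks in CDS, with Fn1 and Myh9 among them. In 300 genes (15.6%), every PDGF-AA peak was in CDS and every untreated peak was in an intron, including Synj2, a lipid phosphatase of endocytosis, Vcl, the focal adhesion protein vinculin, and Ptpn14, a tyrosine phosphatase. The opposite arrangement, with intronic PDGF-AA peaks alone and coding untreated peaks alone, was found in 11 genes, such as Tnpo1, a nuclear import receptor, and Nfkb1, an NF-κB subunit. In a further 124 genes both lists held intronic peaks alone. In all, 675 of the genes bound in both lists had only intronic untreated peaks, and 571 of them held at least 1 PDGF-AA-only site. These 571 genes held 1064 sites, of which 684 (64.3%) were in CDS, and 498 of the 1117 untreated peaks in the 675 genes (44.6%) held an uninterrupted CA repeat of 12 nt or longer, called a tandem CA run.

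In genomic distance, most sites were more than 1000 nt from the nearest untreated peak of their gene. The median gap was 6077 nt in the genome, with quartiles of 1019 and 22796 nt, and 75.2% of the sites were more than 1000 nt away. For 1495 sites with an untreated peak on the same spliced transcript, the median gap along it was 540 nt. The remaining sites are left out of this median, so it does not cover the same sites as the genomic one. Coding sites had a median genomic gap of 5197 nt and intronic sites one of 15670.5 nt. Sites close to an untreated peak were few: 239 of 3589 (6.66%) were within 100 nt and 38 were within 10 nt. At the edge of the rule, 3 sites abutted an untreated peak with a gap of 0 nt, in Ccnk, Phldb2 and Cpt1c, and just outside it 3 PDGF-AA peaks overlapped an untreated peak by exactly 1 nt, in Smarcb1, Gm50139 and Nucb1. There were 35 sites with a gap of 1 to 10 nt and 35 shared PDGF-AA peaks with an overlap of 1 to 10 nt. Few sites therefore lay near the limit of the rule. The sites farthest away were in long genes. An intronic site of Dmd, the dystrophin gene, lay 910138 nt from its untreated peak, and a coding site in exon 8 of Nav3, a neuron navigator gene, lay 599332 nt away.

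**Figure D2:**
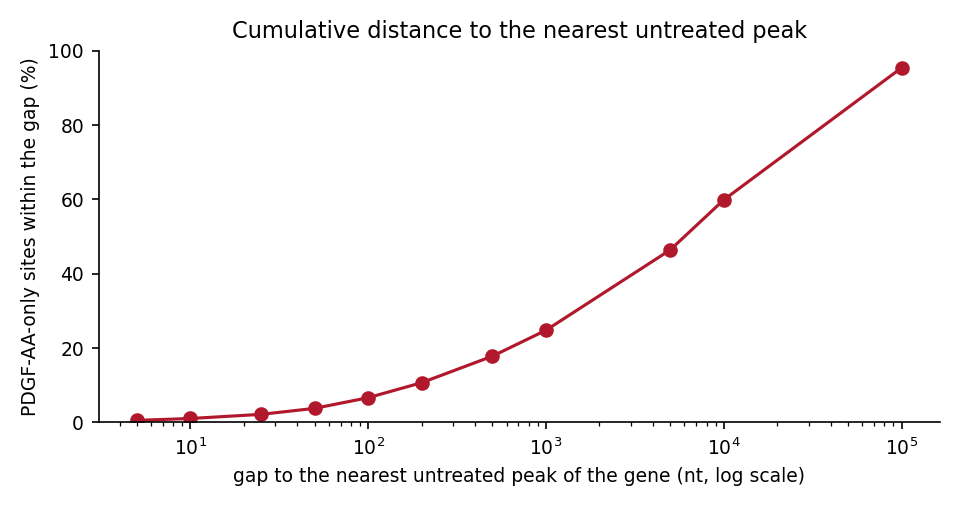
Cumulative share of the 3589 PDGF-AA-only sites (y axis, percent) whose nearest untreated peak of the same gene lay within the genomic gap on the x axis (nt, introns included, log scale). 6.66% were within 100 nt, 24.8% within 1000 nt and 95.4% within 100000 nt.

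For exons, 1 transcript per gene was used, that with the longest CDS. Of 2988 sites in such exons, 2557 lay in an exon with no untreated peak, or 85.6% (interval 84.3% to 86.8%), and 431 lay in an exon that also held an untreated peak. The rule removed every PDGF-AA peak that overlapped an untreated one, which leaves little room beside an untreated peak in a short exon, so this share is a description and nothing was read from it. Of the 2557, 529 (20.7%) were in an exon directly next to one with an untreated peak. The 2988 sites fell in 2691 distinct exons, 243 of which held more than 1 site. The busiest was the giant exon 5 of Ahnak, which encodes a large scaffold protein and spans 17498 nt, with 6 sites and 11 untreated peaks. Exons with 4 sites and no untreated peak were exon 13 of Ptpn14 (1484 nt), exon 4 of Bcor, a BCL6 corepressor (2847 nt), and exon 6 of Pakap (2566 nt). Exon 2 of Igf1r (546 nt) held 3 sites and no untreated peak. Some sites were neighbors rather than separate places, as 394 of the 3589 lay within 50 nt of another such site and 105 overlapped another.

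Within internal coding exons, the sites were spread along the exon. The median midpoint of 2297 sites was at 53.0% of the exon length, counted from the 3′ splice site, with quartiles of 28.0% and 75.5%. The shared PDGF-AA sites had their median at 62.1% and the untreated-only sites at 78.0%, toward the 5′ splice site. The last 10 nt of the exon were covered by 25.6% of the sites (interval 23.8% to 27.4%), compared to 45.5% of shared PDGF-AA sites and 57.6% of untreated-only sites. The first 10 nt were covered by 23.0% of the sites, compared to 25.3% of shared and 13.4% of untreated-only sites. Coding sites had median widths of 46 nt for the PDGF-AA-only, 63 nt for the shared and 39 nt for the untreated-only group. Wider sites cover an exon end more often, and shared sites overlap untreated peaks by the rule. The differences in these shares are therefore not independent of width or of the rule. In exons over 200 nt the order of the medians was the same, at 51.0% for the PDGF-AA-only, 64.1% for the shared PDGF-AA and 83.9% for the untreated-only sites. The exons of the sites had a median length of 156 nt, against 141 nt for shared and 130 nt for untreated-only sites.

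Positions were also compared inside genes. In 496 genes with both kinds of site in internal coding exons, the mean position of the PDGF-AA-only sites was nearer the 3′ splice site than that of the untreated-only sites in 378 and farther in 118, with a median difference of -22.1 percentage points of exon length. Set beside shared PDGF-AA sites in 498 genes, it was nearer in 315 and farther in 183, with a median difference of -12.8 points. The rule leaves sites only beside untreated peaks, and not on them, so positions within a shared exon are given as a description. In 227 cases a site and an untreated peak lay in the same internal coding exon, of median length 667 nt. There, the site was upstream of the nearest untreated peak in 153 (67.4%) and downstream in 74, with median positions of 37.7% for the sites and 70.3% for the untreated peaks.

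**Figure D3:**
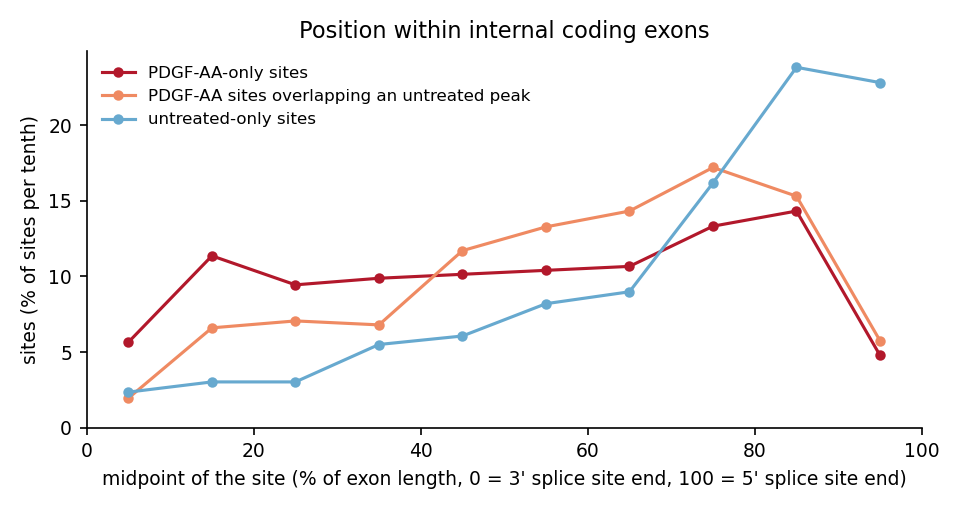
Midpoints of sites in internal coding exons, in bins of 10% of exon length from the 3′ splice site (0) to the 5′ splice site (100), as percent of sites in each group (n = 2297, 1529 and 890). The last bin held 4.79% of PDGF-AA-only and 5.76% of shared PDGF-AA sites, against 22.8% of untreated-only sites.

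Few sites reached into the downstream intron. The deposited intervals sat 1 nt later than the annotation, since 793 of the site boundaries fell 1 nt after an exon boundary and 15 fell exactly on it. Once moved back by 1 nt, 20 of 2297 sites (0.871%) crossed the 5′ splice site, compared to 3.53% of shared PDGF-AA sites and 19.6% of untreated-only sites. Crossing of the 3′ splice site was rare throughout, at 0.261%, 0.458% and 0.112% in the same order. The exons were not set apart by annotated skipping, as 26.3% of the PDGF-AA-only sites (interval 24.5% to 28.1%), 397 of the 1529 shared sites and 27.6% of the untreated-only sites lay in an exon that another transcript of the gene skips. Along the coding sequence the PDGF-AA-only sites had quartiles of 25.1% and 72.9% of its length, the shared sites of 25.9% and 72.0%, and the untreated-only sites of 25.7% and 70.3%. The first coding exon held 8.95% of the coding sites, against 9.56% of shared and 13.9% of untreated-only sites.

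The sites were short and moderately GC-rich. Their median width was 47 nt, with quartiles of 33 and 63 nt and a range of 7 to 202 nt, compared to 64 nt for shared and 46 nt for untreated-only sites. Width bears on whether an overlap occurs at all, so the difference from shared sites is not independent of the rule. The widest site, 202 nt, lay in exon 12 of Prrc2c, a stress granule protein, 17 nt from an untreated peak. In CDS, the median GC content was 56.9% for the sites, 56.7% for shared sites and 61.1% for untreated-only sites, and the exons around them had medians of 54.8%, 55.2% and 56.8%. In the 496 genes with both kinds, mean GC was lower in the PDGF-AA-only than in the untreated-only sites in 316 and higher in 176, with a median difference of -3.17 percentage points. The 89 sites in 5′ UTRs had a median GC content of 68.3%, compared to 76.0% in shared and 83.3% in untreated-only sites of that region.

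The coding sites had a median purine share of 61.8%, compared to 63.2% in shared and 57.5% in untreated-only coding sites. Of the bases of CDS outside peaks, 52.1% were purines. Sites with at least 80% purines made up 4.84%, 6.67% and 4.27% of the coding sites in the same order of groups. GA hexamers, like GAAGCG and CACACA, were named by the study as motifs of peaks from the same libraries. Their counts here, in CDS and in introns, are therefore a description and no independent evidence. GA hexamers, searched on the transcribed strand with overlapping copies counted, occurred in 871 of the 2893 coding sites, or 30.1%. In windows of 46 nt, the median width of the coding sites, tiled over all CDS of the same genes outside any peak, 8.27% of 107421 windows held one. Shared PDGF-AA coding sites, which are wider, held one in 39.2% and untreated-only coding sites in 11.7%. Per kb of coding site, AGAAGA was found 5.07 times in the PDGF-AA-only, 6.43 times in the shared and 2.19 times in the untreated-only sites, against 1.17 in CDS outside peaks. GAAGAA had 4.67, 5.78 and 1.82 copies per kb in the same order and 1.13 outside peaks. GAAGCG had 0.743, 0.833 and 0.285 copies per kb, against 0.212 outside peaks. CACACA had 0.229, 0.314 and 0.328 copies per kb, against 0.365 outside peaks, and so was not raised in any group of coding sites. An uninterrupted GAA repeat of 12 nt or longer was present in 17 coding sites, so most sites with a GA hexamer held no such repeat.

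When all hexamers with at least 50 copies in the coding sites were ranked by their frequency relative to CDS outside peaks, the leading ones were ACGACG (log2 ratio 2.74, 67 copies), CGACGA (2.51, 70 copies), GACGAC (2.41, 114 copies), GAAGAG (2.25, 572 copies) and AGAAGA (2.22, 731 copies). ACGACG and CGACGA also ranked highest in the shared PDGF-AA sites, at 3.26 and 3.11. In the untreated-only coding sites, where 66 hexamers had enough copies, CGGCGG (3.16), GCGGCG (3.07) and GGTGAG (2.71) came first, the last of which spells the sequence of many 5′ splice sites. The hexamers rarest in the PDGF-AA-only sites were rich in T, such as CCTTTT with 0 copies, and so were those rarest in the shared sites, such as TTTGCT. Low T was common to the 3 groups of coding sites. It made up 12.6% of the bases in PDGF-AA-only, 11.6% in shared and 13.2% in untreated-only sites, compared to 21.3% in CDS outside peaks.

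**Figure D4:**
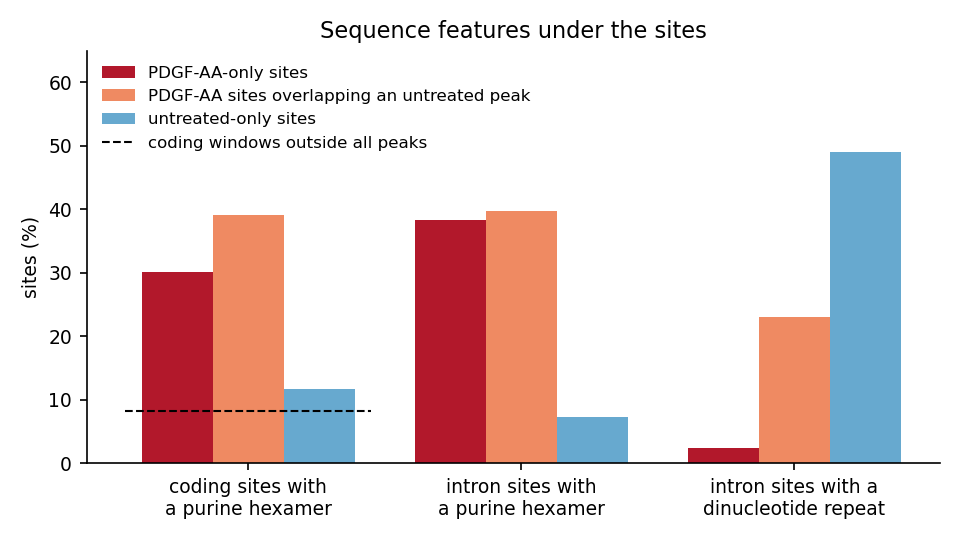
Percent of coding sites with a GA hexamer (labelled purine hexamer), of intron sites with one, and of intron sites with a tandem CA run of at least 12 nt (labelled dinucleotide repeat), in the 3 groups of sites; the dashed line marks coding windows outside all peaks (8.27%). PDGF-AA-only sites held GA hexamers in 30.1% of coding and 38.3% of intron sites. CA runs were in 2.39% of their intron sites, against 23.1% of shared and 49.1% of untreated-only intron sites.

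The residues encoded under the coding sites were rich in glutamate and lysine. Of 44688 codons lying wholly inside the coding sites, 13.7% encoded glutamate (interval 13.4% to 14.0%), compared to 14.8% in shared PDGF-AA sites, 9.92% in untreated-only sites and 7.31% in CDS of the same genes outside peaks. Lysine made up 9.45% of the codons in the PDGF-AA-only, 10.9% in the shared and 7.05% in the untreated-only sites, against 5.76% outside peaks. Synonymous codons were not all raised alike. The lysine codon AAG had 7.41% of all codons against 3.47% outside peaks (log2 ratio 1.10), while AAA, which codes for lysine too, had 2.03% against 2.30% (log2 ratio -0.17). The aspartate codon GAC had a log2 ratio of 0.69 and GAT one of -0.07, while the glutamate codons GAA and GAG were alike, at 0.90 and 0.92. The lysine and aspartate differences were not particular to these sites. In shared and untreated-only sites, AAG had log2 ratios of 1.29 and 0.61, and AAA had 0.06 and -0.40. GAC had 0.61 and 0.28 there, and GAT had -0.09 and -0.83. Phenylalanine was the least represented relative to CDS outside peaks, with 1.21% against 3.20%, followed by cysteine with 1.01% against 2.04%. Both were also low in the other groups. Phenylalanine made up 1.29% of codons in shared and 1.21% in untreated-only sites, and cysteine 0.785% and 1.36%.

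The 460 intronic sites held GA hexamers more often than CA repeats. A GA hexamer was present in 176 of them (38.3%), compared to 39.8% of shared and 7.25% of untreated-only intron sites, and 5.09% of 3438745 windows of 53 nt tiled over the introns of the same genes outside peaks. A tandem CA run was found in 11 of 460 (2.39%), 77 of 334 (23.1%) and 684 of 1393 (49.1%) in the same order, and in 0.460% of the intron windows. The rule counted PDGF-AA peaks on an untreated CA repeat as shared, so the difference between these groups is not independent of it. Uninterrupted GAA repeats of 12 nt or longer were found in 28 PDGF-AA-only, 36 shared and 20 untreated-only intron sites. The sites with the most GA hexamers were all of this kind, in introns of Tll1, an astacin metalloprotease (110 copies), Samd4, an RNA-binding translational repressor (94 copies), Prkca, protein kinase C alpha (87 copies), Tshz3, a zinc finger transcription factor (87 copies), and Sh3pxd2a, a podosome scaffold (77 copies). The intronic sites were deep, with a median of 5250.5 nt to the nearest annotated exon and 83.5% of them beyond 1000 nt. The shared intron sites were nearly as deep, with a median of 4681.5 nt and 79.3% beyond 1000 nt, and of the untreated-only intron sites 65.2% were beyond 1000 nt. Not all are certain to be intronic: 86 of the 460 overlapped an exon of another gene on the same strand, 27 of these a protocadherin gamma exon.

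The number of sites per gene fell off quickly. There were 1058 genes with 1 site, 479 with 2, 218 with 3, 91 with 4 and 79 with 5 or more. In 1062 genes every PDGF-AA peak was a PDGF-AA-only site, and in 863 there were shared sites as well. The highest counts, 44 for Galnt2l and 29 for Gm42416, belonged to gene entries that the peak caller did not name for many of the same sites. It placed 21 of the 44 Galnt2l sites in other genes, such as Gse1 and Tcf25, and the Gm42416 sites in protocadherin genes. Galnt2l could not be placed with the annotation used. These counts are uncertain and the entries are not described further.

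**Figure D5:**
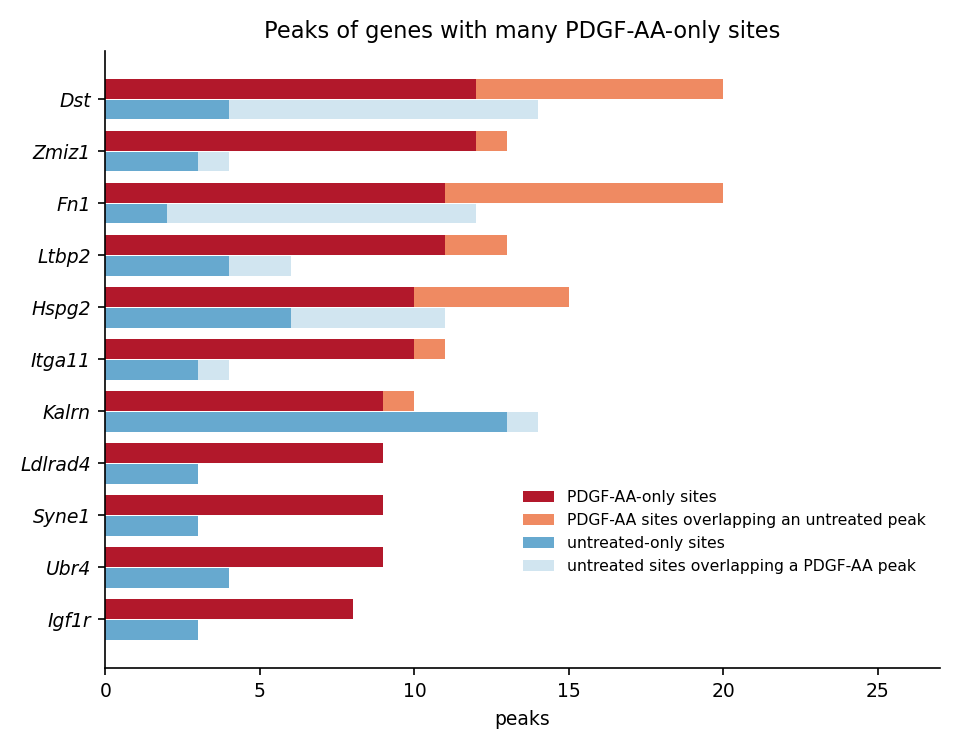
Peaks per gene for 11 of the genes with the most PDGF-AA-only sites, without Galnt2l and Gm42416. The upper bar of each pair stacks PDGF-AA-only and shared PDGF-AA sites, the lower bar untreated-only sites and untreated sites that overlap a PDGF-AA peak. Dst and Zmiz1 held 12 PDGF-AA-only sites each.

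Among single genes, those with the most sites encoded large proteins of the matrix and the cytoskeleton. Dst, a plakin that links intermediate filaments, actin and microtubules, held 12 sites, all coding, beside 8 shared sites. In Dst, 3 of the sites lay in exon 60 at 35610 to 36599 nt from an untreated peak, while 2 in exon 39 shared that exon with one. Fn1, which encodes fibronectin, held 11 coding sites in 11 different exons from exon 5 to exon 44, beside 9 shared sites, and all 12 untreated peaks of Fn1 were coding too. Its untreated peaks covered exons 36 to 39 closely, and the PDGF-AA-only sites lay on both sides, in exons 34 and 35 and from exon 43 on. Only the Fn1 site in exon 43 (chr1:71630023-71630048) was in an exon with an untreated peak, 20 nt away. Hspg2, the basement membrane proteoglycan perlecan, had 10 coding sites and 5 shared sites, with gaps from 49 to 8173 nt.

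In other genes, the coding sites stood beside intronic untreated peaks. Ltbp2, a latent TGF-β binding protein of the microfibrils, had 11 coding sites in 11 exons, against 4 intronic and 2 coding untreated peaks, 3 of the 6 with a tandem CA run. Igf1r, the insulin-like growth factor 1 receptor and an activator of PI3K, had 8 PDGF-AA peaks, none of them shared, 7 in CDS and 1 in an intron. Of the Igf1r sites, 3 lay in exon 2 at 32343 to 32795 nt from an untreated peak, and its 3 untreated peaks were all intronic, 2 with a tandem CA run. Syne1, the nuclear envelope spectrin repeat protein nesprin-1, had 9 sites and no shared site, with 8 in CDS from exon 80 to exon 144 and 1 in the 3′ UTR, against 3 intronic untreated peaks. Vcl had 7 coding sites from exon 6 to exon 18 and 2 intronic untreated peaks. Zmiz1, a transcriptional coactivator of the PIAS family, had 12 sites (7 coding, 4 in 5′ UTR exons and 1 intronic) beside 1 shared site, and all 4 of its untreated peaks were intronic. Its coding sites began at exon 6 and lay 25081 to 101533 nt from the nearest untreated peak.

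Genes with intronic sites were fewer. Itga11, the collagen-binding integrin α11, held 10 sites, with 6 in CDS and 4 in introns, while all 4 of its untreated peaks held a tandem CA run. All 10 lay 7652 nt or more from an untreated peak, and 1 of them held a GA hexamer. Ldlrad4, a negative regulator of TGF-β signaling, held 9 sites, 7 of them intronic and 2 coding, and no shared site. Kalrn, a guanine nucleotide exchange factor, had 9 sites beside 14 untreated peaks, 13 of which were intronic, so here the untreated list was the longer one. Ubr4, a ubiquitin ligase of the N-degron pathway, had 9 coding sites and no shared site, and 3 of its 4 untreated peaks were coding as well. Scrib, a cell polarity scaffold, and Tln1, which couples integrins to actin, likewise had 6 coding sites each, no shared site, and only coding untreated peaks (2 in Scrib and 4 in Tln1). In Tln1, the sites nearest and farthest from an untreated peak were 380 and 12724 nt away.

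Gene lists were described by how many of their genes bound in both lists held a site, beside the 71.1% over all genes. Pooled over the 14 lists, 308 of 392 genes held one (78.6%). These lists were drawn up with earlier results of these data known. All 14 plakins, spectrins and nesprins bound in both lists held a site, with 58 sites in all and a median of 2.5 per gene against 1 over all genes bound in both lists. Dst, Syne1 and Utrn, the dystrophin relative utrophin (8 coding sites), led that list. Among integrins and focal adhesion proteins, 21 of 23 held a site (91.3%), with 75 sites, among them those of Itga11 and Vcl. Fibrillar and other collagens held sites in 14 of 16 genes (87.5%), with 6 in Col6a3 and 5 each in Col12a1 and Col4a2, and matrix glycoproteins, fibrillins and latent TGF-β binding proteins in 20 of 24 (83.3%), with 76 sites. Counts of sites were not scaled by the length of the coding sequence.

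The share of genes with a site was not tested for any list, and for the signaling and trafficking lists it differed from that over all genes by few genes. For PDGF receptor, PI3K, Akt and mTOR signaling, 16 of 21 genes held a site (76.2%). Inppl1, the inositol phosphatase SHIP2, had 6 coding sites beside 1 shared site, and Pdgfrb, the β receptor for PDGF, had 2 sites among 4 PDGF-AA peaks. Pdgfra had no PDGF-AA peak and 1 untreated peak. Fgfr2, a fibroblast growth factor receptor, had 5 sites, none coding, and the caller assigned 3 of them to another gene. For endosome and membrane trafficking the count was 29 of 36 (80.6%), led by Asap1, an Arf GTPase-activating protein (6 coding sites), Golgb1, the Golgi tether giantin, and Lrp1, an endocytic receptor (5 coding sites each). In Golgb1, a site of 69 nt in exon 13 held 7 copies of the GA hexamers. Becn1, a core autophagy protein, and Wdr81, an endosomal regulator, had 1 and 3 PDGF-AA peaks and no untreated peak, so they held no site of this kind, and Acap3 had 1 PDGF-AA peak, which was shared.

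TGF-β, BMP, Wnt and Hedgehog signaling genes held a site in 23 of 29 (79.3%), and 58.7% of their 63 sites were coding, against 81.8% of all placed sites. Tcf7l2, the main transcription factor of Wnt signaling, had 6 coding sites at 71289 to 103144 nt from its only untreated peak, which was intronic. Its sites in exons 10 and 12 held 10 and 9 copies of the GA hexamers within 54 and 49 nt, and exon 12, of 49 nt, was as long as the site. Chromatin modifiers and remodelers held a site in 44 of 56 genes (78.6%), and 110 of their 113 sites were coding. Tet3, a methylcytosine dioxygenase, had 6. All 5 sites of Smarca4, the ATPase of the SWI/SNF complex, carried a GA hexamer, among them a pair in exon 30 that together spanned most of that exon of 254 nt. Of the mesenchyme and palate transcription factors, 24 of 34 held a site (70.6%), with 6 in Foxp4, a forkhead factor, and 5 in Runx1, which functions in skeletal and blood development. Zeb1, a repressor of epithelial genes, had 3 coding sites, all with a GA hexamer, and 3 untreated peaks, all intronic.

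In the splicing lists, too, the share was few genes away from that over all genes. SR protein and Tra2 genes held a site in 12 of 17 (70.6%), and Srsf3 itself had no peak in either list. Among the SR genes, Son, Pnisr and Srrm2 had 3 sites each. Son, a large nuclear speckle protein, carried all 3 of its sites in exon 3, which also held its 3 untreated peaks, at gaps of 2129 to 4538 nt. Srsf4 had 1 site of 151 nt in its last exon, with 7 copies of the GA hexamers and a gap of 176 nt. Srsf1 had 2 coding sites, in exons 2 and 4, and Tra2a had 1. Among spliceosome, hnRNP and splicing regulator genes, 24 of 38 held a site (63.2%), with 4 in Luc7l2, a U1 snRNP-associated protein, and 3 each in Acin1 and Rbm5. Translation factors and ribosomal proteins held a site in 17 of 22 genes (77.3%), with all 30 sites coding, and ubiquitin ligases and deubiquitinases in 24 of 28 (85.7%). Actin, myosin and motor protein genes held one in 26 of 34 (76.5%), led by Myh9, non-muscle myosin IIA, with 7 sites beside 9 shared sites.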

How the data were processed

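The series was eCLIP of endogenous Srsf3 in iMEPM cells. The authors' methods state that adapters were cut with cutadapt, reads quality-filtered and collapsed before their molecular identifiers were taken off, and STAR alignment done first to repetitive elements, with what remained going to GRCm39 (GENCODE M26). Peak calling was by omniCLIP and gene annotation by RCAS. The submitters' processing notes name cutadapt 1.18 and STAR 2.7.9. The deposited lists give peak intervals with a gene and no other measurement, 8623 rows for PDGF-AA and 6607 for untreated cells. The study's eCLIP table gives 1 PDGF-AA and 2 untreated Srsf3 libraries, so the lists rest on unequal numbers of libraries. Reads taken up by the repeat step could not form peaks, which may bear on CA and GAA repeats. In the study's eCLIP table, the read count of untreated replicate 1 was the same before and after this step. Those of untreated replicate 2 and of the PDGF-AA library fell. What this difference did to the groups of sites was not tested.

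Intervals listed under several genes were counted once, and a site took the first of its genes that was bound in both lists. Of the PDGF-AA peaks, 98.7% lay inside their gene in GENCODE M39 on GRCm39, and 54 of the sites could not be placed in a region. Sequences were read from the GENCODE GRCm39 genome with pysam 0.24.0. The site rule was tested on simulated intervals. Hexamer ratios used a pseudocount of 0.5. No test was run, as each condition had 1 list. The files of peaks unique to a condition were not used.

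The sites and gene lists were chosen with earlier results of these data known. Genes named in the text were the 15 with the most sites, the 8 with the most sites among genes without shared PDGF-AA sites, a few genes the study examined, SR genes with a site, and the 3 leading genes of each list. Single sites were the 5 widest, the 5 with the most GA hexamers, and the 5 nearest to and farthest from an untreated peak. For the sequences shown, each gene gave its coding site with the most GA hexamers or its untreated-only site with the longest CA repeat. The Tshz3 site was among the intron sites with the most GA hexamers. Examples of other counts (Ahnak, Ptpn14, Bcor, Pakap, Tnpo1, Nfkb1, Smarcb1, Gm50139, Nucb1, Gse1, Tcf25, Pdgfra and Pdgfrb) were chosen after their values were seen. Some genes that the rule names are not reported here.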

Additional observations from a re-analysis of the deposited data

How the results depend on the processing

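The number of sites stayed within 1.5 times of 3589 under 8 alternatives, between 2933 with peaks of at least 30 nt alone and 3966 when an overlap had to cover 50% of the PDGF-AA peak. Of 65 alternative values over 19 results, 50 stayed within the counting interval or, for counts, within 1.5 times of the reported value. The largest change came from giving any UTR overlap precedence, which put 35.0% of the sites in CDS, 4.21% in 5′ UTRs and 47.6% in 3′ UTRs. Of 1598 coding sites that became 3′ UTR there, 1445 (90.4%) did so through nonsense-mediated decay transcripts alone. On the transcript with the longest coding sequence, introns held 15.6%, 5′ UTRs 1.98% and 3′ UTRs 1.30%. The median gap was 540 nt along the spliced transcript, over 1495 sites with an untreated peak on the same transcript. Without sites within 200 nt of an untreated peak, 92.6% of exonic sites lay in exons without one. With all annotated coding exons merged, 23.7% covered the last 10 nt of the exon, and with intervals moved back by 1 nt, 0.871% reached past the exon, against 9.01% as deposited. Median GC was 56.9% in coding sites, against 56.5% in all sites. GA hexamers were found in 32.3% of coding sites widened by 10 nt on both sides. They were in 5.74% of windows 100 nt upstream and downstream of the sites, against 8.27% of coding windows. The former windows were taken along the genome and can lie in introns, so the 2 kinds of window are not alike. Glutamate and lysine made up 22.6% of codons touched, against 23.2% of those wholly inside. Listed genes with at least 2 sites numbered 182, against 308 with at least 1. Without Galnt2l and Gm42416 there were 3516 sites with a median gap of 6072 nt. Chosen after seeing the data were the regions without these entries, with 82.5% in CDS, and GA hexamers without sites holding uninterrupted GAA repeats, with 29.7%. The comparisons within genes are counts and medians only, as no test was run.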
